A study of Mus musculus with 9 samples.

Results

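The genes of oxidative phosphorylation were examined in the livers of healthy mice and of mice with RAS/AKT-induced hepatocellular carcinoma (HCC), with or without miR-22 treatment. Members were the rows of the count table whose symbol begins as the subunits of the respiratory chain and ATP synthase do (mt-Nd, mt-Co, mt-Cytb and mt-Atp for the mitochondrial genome; Ndufa, Ndufb, Ndufc, Ndufs and Ndufv, Sdha to Sdhd, Uqcr, Cox4 to Cox8 and Atp5 for the nuclear genome), leaving out numbered pseudogenes. The rule found 119 of 55401 genes, 13 of them mitochondrial-encoded and 106 nuclear-encoded. Besides 85 nuclear subunit genes, the nuclear rows held 8 Ndufaf assembly factors, 10 rows annotated as pseudogenes, Cox5b-ps, the supercomplex factor Cox7a2l and an empty second row named Atp5o. Cyc1 (cytochrome c1 of complex III) and the inhibitor Atpif1 carry names outside the rule and were read as companions.

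All 9 livers came from female mice, 3 per group. Mice of all 3 groups were 6 weeks old at the start. Healthy livers were wild type and received no treatment. HCC was induced from 6 weeks of age by hydrodynamic tail vein injection, which carries plasmids into hepatocytes, of myr-AKT (EF1α promoter) and Nras-v12 (Caggs promoter) with the transposase plasmid pCMV-SB11. A week later the mice received AAV8 blank control (untreated HCC) or AAV8-miR-22, which expresses miR-22-3p from a CMV promoter (miR-22-treated HCC), and livers were taken 4 weeks after the virus. The hydrodynamic injection, the oncogenes and the virus thus all separate untreated HCC from healthy livers and cannot be told apart. For healthy livers the sources used here give no harvest time, so whether age at harvest was matched is not known. The labels name the strain as FVB/N in the growth protocol and C57BL/6 in the strain field, and the paper's methods give FVB/N for the sequenced livers. The CMV promoter is not specific to a cell type, so the sources do not limit which infected cells expressed the miRNA.

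Mammalian oxidative phosphorylation is built from both genomes. Complex I (NADH dehydrogenase), complex III (the cytochrome bc1 complex), complex IV (cytochrome c oxidase) and complex V (ATP synthase) combine mitochondrial-encoded cores with nuclear-encoded subunits, whereas complex II (succinate dehydrogenase) is wholly nuclear-encoded. Hepatocytes are rich in mitochondria, which oxidize fatty acids and amino acids and supply ATP for gluconeogenesis and urea synthesis.

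Total counts ranged from 16664659 to 23908392 per library. Of the 119 members, 102 passed the filter on low counts and were tested among 15717 genes, 10 mitochondrial-encoded and 92 nuclear-encoded. Healthy livers had TMM scaling factors of 0.865 to 0.872, untreated HCC of 1.12 to 1.22 and miR-22-treated HCC of 0.942 to 1.03. Scaling thus bears on every change below but that of the mitochondrial to nuclear ratio. Hepatocyte markers were lower in untreated HCC: 8 of 9 fell over 1.5-fold with an edgeR adjusted p under 0.05 (beside 18.1% of all tested genes), and their summed level, in CPM (counts scaled to a common library size), was 130781 to 134669 for the healthy livers, 54661 to 67865 for untreated HCC and 81204 to 100692 for the miR-22-treated group. In the same order, 5 bile duct markers summed to 29.4 to 41.9, 3324 to 6213 and 1562 to 2700 CPM, and 7 stellate cell and fibroblast markers to 128 to 142, 791 to 934 and 504 to 685 CPM. By the same thresholds, 4 bile duct markers rose and 0 fell in untreated HCC. Of the stellate cell and fibroblast markers 5 rose and 1 fell (all tested genes: 22.7% and 18.1%). With miR-22, 0 bile duct markers rose and 3 fell. Of the stellate cell and fibroblast markers 1 rose and 2 fell (all tested genes: 8.32% and 5.47%). For this model the paper reports that tumours filled most of the untreated liver sections and that miR-22 lowered the liver-to-body weight ratio. In whole liver, fewer hepatocytes, less RNA per hepatocyte and the share of tumour tissue cannot be told apart. The part of tumour share and cell makeup in the changes below was not tested.

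Summed over 13 mRNAs, mitochondrial-encoded members were more abundant than nuclear-encoded ones and differed more between groups. Of the 13, 6 had 0 to 163 counts per library, so this sum and the ratio below rest on the other 7. They made up 42870, 48094 and 47540 CPM of the TMM effective library in the 3 healthy livers. The sum was 22258, 20210 and 24546 CPM in untreated HCC and 32762, 37862 and 28715 CPM in miR-22-treated HCC. No liver of any group overlapped with another group: healthy livers were highest, untreated HCC lowest and miR-22-treated HCC in between. The mean was 46168 ± 2869 CPM (SD, n = 3) in healthy livers, 22338 ± 2169 in untreated HCC and 33113 ± 4584 in miR-22-treated HCC, a log2 difference of -1.05 from healthy livers to untreated HCC and of 0.56 from untreated to miR-22-treated HCC.

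The nuclear-encoded members followed in the same order with smaller differences. Without the assembly factors, their sum was 11215, 11072 and 11774 CPM in healthy livers, 7806, 7180 and 8183 CPM in untreated HCC and 8523, 9931 and 9706 CPM in miR-22-treated HCC. Again the 3 groups did not overlap, and the log2 difference was -0.56 for untreated HCC against healthy livers and 0.28 for miR-22-treated against untreated HCC. On the plain share of all counts the same sum was 0.986% ± 0.0332 in healthy livers, 0.897% ± 0.0199 in untreated HCC and 0.926% ± 0.0754 in miR-22-treated HCC (SD, n = 3), and on that scale the miR-22-treated livers overlapped with both other groups. In log2 terms the nuclear difference between untreated HCC and healthy livers was -0.14 as a share of counts and -0.56 after TMM scaling.

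The ratio of mitochondrial to nuclear sums needs no scaling between libraries. It was 3.82, 4.34 and 4.04 in healthy livers and 2.85, 2.81 and 3.00 in untreated HCC, which did not overlap. In miR-22-treated HCC it was 3.84, 3.81 and 2.96. The ratio of replicate 4 lay within the range of untreated HCC, that of replicate 2 within the healthy range and that of replicate 3 just below it. On the log2 scale the difference of untreated HCC from healthy livers was -0.49 with a pooled SD of 0.0739, whereas miR-22-treated HCC was higher than untreated HCC by 0.28 with a pooled SD of 0.16 and overlapping livers. Sums and ratios are scores over chosen members and were not tested.

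**Figure D1:**
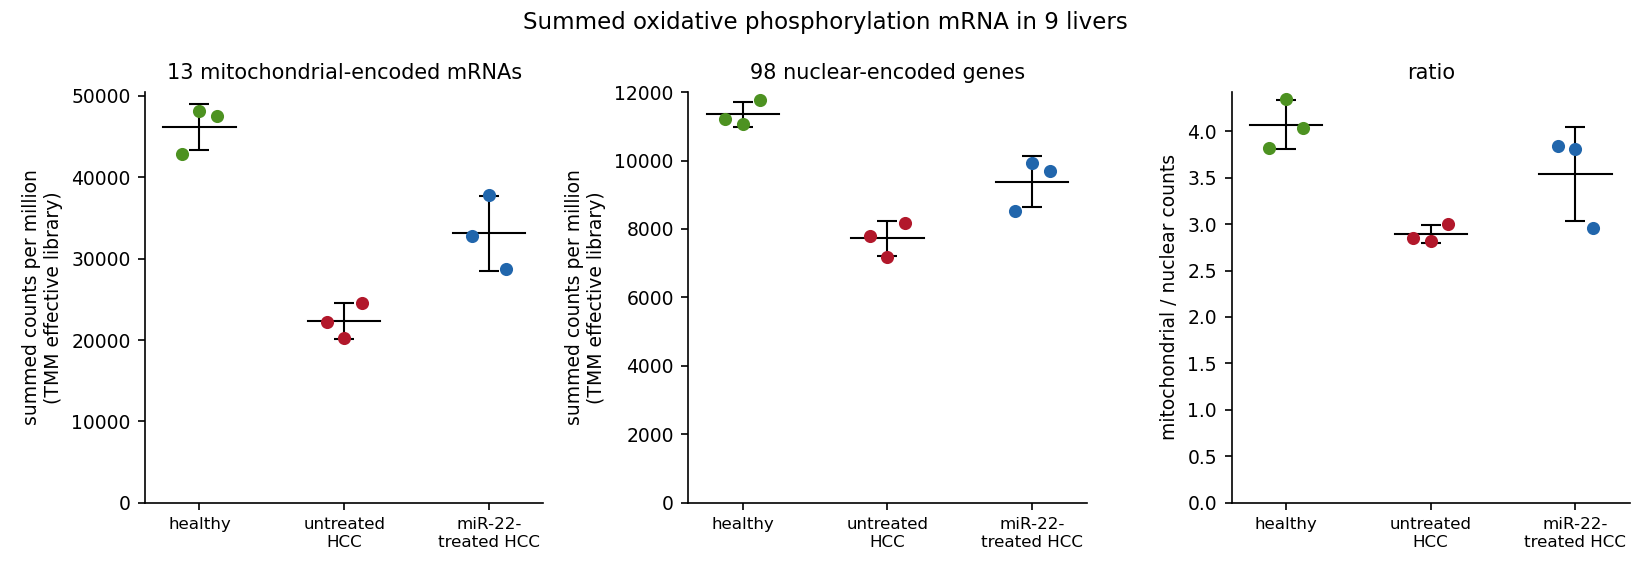
Summed mRNA of the mitochondrial-encoded genes (left) and of the nuclear-encoded genes without Ndufaf factors (middle), in CPM of the TMM effective library, and the ratio of their counts (right). Points are livers, bars are the mean and SD of 3 livers. Untreated HCC lies below healthy livers in all 3 panels; miR-22-treated HCC lies between them in both sums, and its ratio overlaps with untreated HCC at 2.96.

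Most members had less mRNA in untreated HCC than healthy livers did. A gene was called at an edgeR adjusted p under 0.05 over all tested genes and a fold change over 1.5. Of 102 tested members, 44 were called lower, 43.1%, where 18.1% of all tested genes were, and 1 was called higher, where 22.7% of all tested genes were. By adjusted p alone, 79 fell and 1 rose, against 26.8% and 29.4% of all tested genes. The livers did not overlap for 85 members lower in untreated HCC (31.4% of all tested genes) and 1 higher (33.9% of all tested genes). The median log2 fold change of the members was -0.52, beside 0.01 over all tested genes.

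The 10 tested mitochondrial-encoded mRNAs were all called lower, and their livers did not overlap. Their median log2 fold change was -1.04, within a range from -1.31 to -0.94. Of the 92 nuclear-encoded members, 34 were called lower and 89 had a fold change below 0, with a median of -0.48. When libraries were scaled by their totals alone, the median of all tested genes moved to 0.43 and the nuclear median to -0.06, so that 58 of 92 nuclear members were below 0. Relative to the median of all genes, the nuclear median was -0.49 and the mitochondrial median -1.06 with library totals, as with TMM, and 89 of 92 nuclear members lay below that median. Scaling shifts all genes by nearly the same amount, so this distance stays nearly fixed and does not test the scaling.

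Among nuclear subunits, complex II had the lowest median and complexes IV and V the highest. The median log2 fold change was -0.89 for 4 subunits of complex II (3 called lower), -0.68 for 8 of complex III (6 called lower), -0.48 for 37 of complex I (16 called lower), -0.45 for 17 of complex V (3 called lower) and -0.41 for 14 of complex IV (3 called lower and 1 higher). Of all tested genes, 18.1% were called lower and 22.7% higher, and the differences between complexes were not tested. Summed per complex with TMM scaling, no untreated HCC overlapped with a healthy liver in any of the 5 complexes; as a plain share of counts, complex IV overlapped, at 0.122% to 0.146% in healthy livers and 0.128% to 0.136% in untreated HCC, and the other 4 did not.

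**Figure D2:**
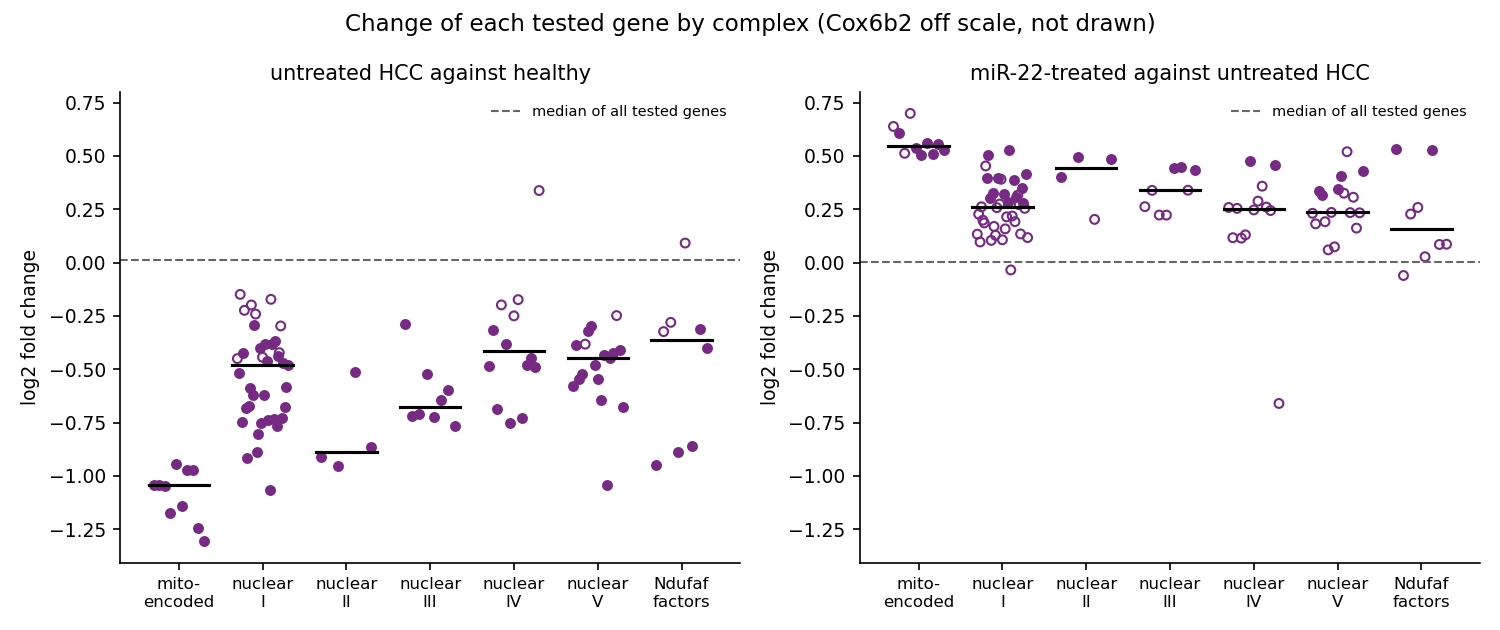
Log2 fold change (y axis) of each tested subunit and Ndufaf gene by genome and complex (Cox6b2, off the scale, is not drawn), for untreated HCC against healthy livers (left) and miR-22-treated against untreated HCC (right). Filled points have an edgeR adjusted p under 0.05, open points do not, black bars are medians and the dashed line is the median of all tested genes. Mitochondrial-encoded mRNAs have the lowest median on the left (-1.04) and the highest on the right (0.55).

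Transcripts of 7 mitochondrial-encoded mRNAs were abundant, with 7440 to 394591 counts in every library. mt-Co1, the catalytic subunit of complex IV, led with TMM-normalised counts of 390845, 437410 and 420605 in healthy livers, 205787, 178134 and 222997 in untreated HCC and 309212, 352781 and 262881 in miR-22-treated HCC. Every untreated HCC lay below every other liver. Its log2 fold change was -1.04 ± 0.17 (SE) in untreated HCC against healthy livers (edgeR adjusted p = 0.000244).

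mt-Nd6, the only subunit gene encoded on the light strand, fell most of all tested members. Its normalised counts were 19352, 14516 and 17056 in healthy livers, 6764, 6756 and 7058 in untreated HCC and 8841, 11247 and 9609 in miR-22-treated HCC. The log2 fold change was -1.31 ± 0.13 (edgeR adjusted p = 3.46e-06). The libraries did not keep strand, so reads of mt-Nd6 and of RNA antisense to it cannot be told apart.

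mt-Nd5, a proton-pumping subunit of complex I, fell by 1.25 on the log2 scale, from 80413, 89492 and 85913 normalised counts in healthy livers to 33716, 35553 and 38620 in untreated HCC (edgeR adjusted p = 2.45e-05). mt-Nd1, at the quinone site of complex I, fell by 1.14 (edgeR adjusted p = 2.16e-05), from 96260, 95286 and 99355 to 43779, 40424 and 47882. These ranges were far apart. mt-Nd2 and mt-Nd4, both membrane subunits of complex I, each fell by 0.97, and mt-Cytb, the core of complex III, by 0.94. Their edgeR adjusted p-values were 5.73e-05, 0.000122 and 0.000286.

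Levels per length differed widely among the 7 abundant mRNAs. Per kb of transcript, mean normalised counts in healthy livers were 269441 for mt-Co1, 126919 for mt-Cytb and 101324 for mt-Nd1, down to 32706 for mt-Nd6. The highest nuclear-encoded level per kb was 13596, for Atp5b, the catalytic β subunit of ATP synthase.

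The other 6 mitochondrial-encoded mRNAs (mt-Co2, mt-Atp8, mt-Atp6, mt-Co3, mt-Nd3 and mt-Nd4l) are neighbours on the mitochondrial genome and had 0 to 163 counts in every library. mt-Co2 had normalised counts of 131, 199 and 166 in healthy livers, 87.3, 68.6 and 84.1 in untreated HCC and 86.6, 162 and 96.0 in miR-22-treated HCC. mt-Co3 had 149, 177 and 146, then 78.2, 51.3 and 79.0, then 98.8, 161 and 82.1. These 6 mRNAs encode subunits of complexes I, IV and V, and the 7 abundant mRNAs lie on both sides of them on the same genome.

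All 6 lie wholly inside a stretch of mitochondrial DNA with a near-identical copy in the nuclear genome. In GRCm39, chrM:6390-11042 aligned with chr1:24650616-24655269 on the minus strand over 4654 bases with 99.936% identity, 2 mismatches and 1 gap. mt-Co1 and mt-Nd4 lie partly inside. The sequence around the mismatch within mt-Nd3 is shown because a read that does not span a mismatch or the gap has the same sequence at both places. The differing base is in capitals, positions are counted from base 1 of chrM, and the substitution from the mitochondrial to the nuclear base is T9461C.
chrM:9447-9475: cagaagagagtaatTaacctgtacactgt
chr1:24652184-24652212: cagaagagagtaatCaacctgtacactgt
The 5 predicted genes annotated at the copy (Gm28439, Gm28438, Gm28437, Gm28661 and Gm29216) had 34 to 645 counts per library, below the 7440 of the lowest of the 7 abundant mRNAs. The part of the copy in the low counts was not tested.

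With those limits, mt-Co3 fell by 1.17 on the log2 scale, mt-Co2 by 1.05 and mt-Atp6 by 1.04 in untreated HCC (edgeR adjusted p = 0.00176, 0.003 and 0.016). mt-Nd3, mt-Nd4l and mt-Atp8 had at most 5 counts in any library and were not tested.

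**Figure D3:**
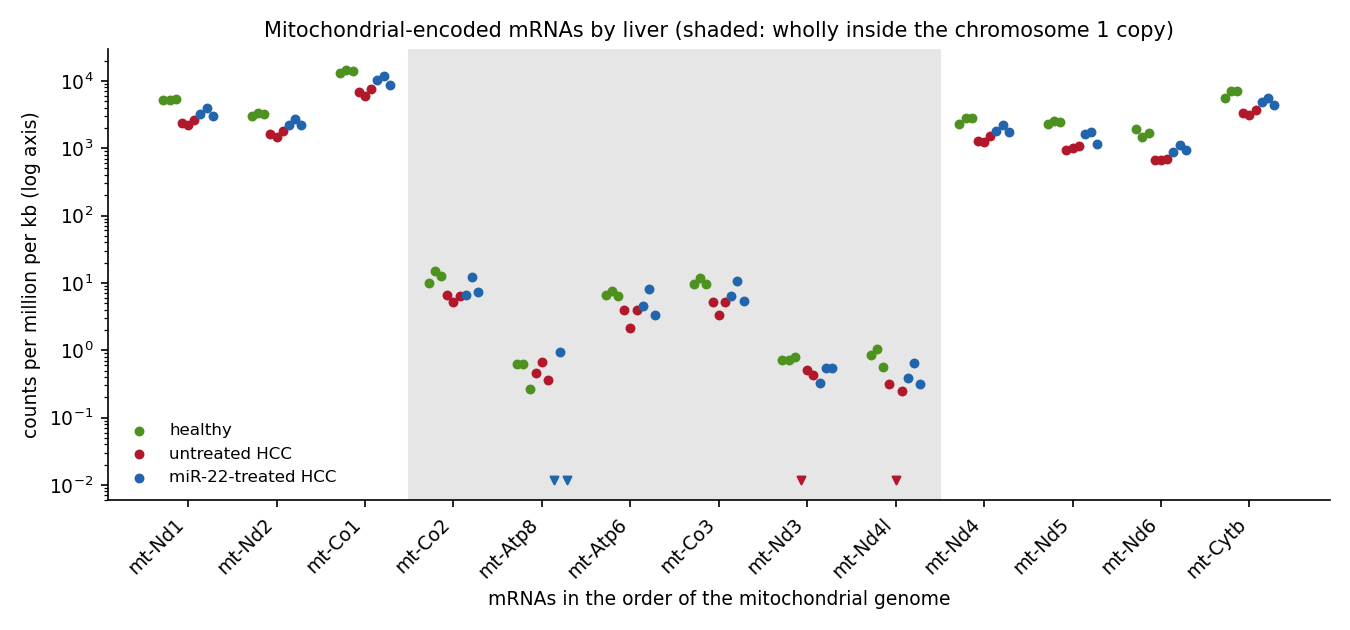
CPM per kb of transcript (log axis) of the 13 mitochondrial-encoded mRNAs in each of 9 livers, in genome order, coloured by group. Triangles at the bottom are livers with 0 counts. The shaded 6 mRNAs, wholly inside the chromosome 1 copy, have 0 to 163 counts per library, against 7440 to 394591 for the 7 others.

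The mitochondrial ribosomal RNAs, which the rule leaves out, fell as well. mt-Rnr1 changed by -1.02 ± 0.17 and mt-Rnr2 by -0.82 ± 0.18 on the log2 scale in untreated HCC (edgeR adjusted p = 0.000261 and 0.00175). Against untreated HCC, mt-Rnr1 was higher by 0.79 ± 0.17 and mt-Rnr2 by 0.80 ± 0.18 in miR-22-treated HCC (edgeR adjusted p = 0.00655 and 0.00682). Of the 22 mitochondrial tRNA genes listed, 1 passed the filter.

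Complex II, which oxidizes succinate in the citric acid cycle, is small enough to give in full. Sdha, the flavoprotein, had normalised counts of 11452, 12083 and 12242 in healthy livers, 6439, 5497 and 7081 in untreated HCC and 8150, 9237 and 7725 in miR-22-treated HCC, and its groups did not overlap. It fell by 0.91 ± 0.12 in untreated HCC (edgeR adjusted p = 2.94e-05). Sdhb (the iron-sulfur subunit), Sdhd and Sdhc (the membrane anchors) changed by -0.95, -0.86 and -0.51, with edgeR adjusted p = 2.78e-05, 1.22e-05 and 0.000318. Of these, Sdhc was below the fold threshold. Sdhb, Sdhc and Sdhd were named after their values were seen.

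In complex I, Ndufb9, an accessory subunit of the membrane arm, fell most of the tested nuclear-encoded members, with normalised counts of 2699, 2480 and 2891 in healthy livers, 1261, 1188 and 1399 in untreated HCC and 1625, 1992 and 1933 in miR-22-treated HCC. Its log2 fold change was -1.07 ± 0.10 (edgeR adjusted p = 2.94e-06). Ndufs1, the largest subunit of the NADH-oxidizing arm, fell from 3391, 3964 and 3892 to 2306, 2036 and 2418, by 0.73 ± 0.11 (edgeR adjusted p = 0.000128). At the other end, Ndufa11, named after its values were seen, had 853, 729 and 766 in healthy livers against 749, 643 and 725 in untreated HCC, with a log2 fold change of -0.15 ± 0.10 (edgeR adjusted p = 0.205). The 37 complex I subunits thus spanned -1.07 to -0.15. Ndufs5 had 48 to 75 counts in healthy livers and its processed copy Ndufs5-ps 224 to 329, so reads of this gene, named after its values were seen, may be split and its value is uncertain.

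In complex III, Uqcrc1, a core subunit, had normalised counts of 5236, 5596 and 5447 in healthy livers and 3742, 3377 and 4214 in untreated HCC, a change of -0.52 ± 0.10 (edgeR adjusted p = 0.000708). Its companion Cyc1 changed by -0.57 ± 0.09 (edgeR adjusted p = 0.000219). Both were below the fold threshold.

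In complex V, Atp5b had 25932, 26480 and 26146 normalised counts in healthy livers, 20432, 18136 and 21521 in untreated HCC and 21455, 23928 and 22780 in miR-22-treated HCC, a change of -0.39 ± 0.11 in untreated HCC (edgeR adjusted p = 0.0103) that reversed to 0.03 with library totals alone. Atp5g1, Atp5g2 and Atp5g3 encode the same mature subunit c of the rotor ring and changed by -0.32, -0.30 and -0.48 (edgeR adjusted p = 0.0154, 0.0118 and 0.00414); with library totals the first and second reversed to 0.10 and 0.13. Atpif1, the inhibitor of ATP hydrolysis by complex V, moved the other way. Its normalised counts were 272, 255 and 288 in healthy livers, 679, 732 and 515 in untreated HCC and 414, 515 and 652 in miR-22-treated HCC, so both HCC groups lay above healthy livers and overlapped with each other. It rose by 1.24 ± 0.17 in untreated HCC (edgeR adjusted p = 4.73e-05).

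Complex IV has isoform families whose members differ between tissues. The forms found in most tissues carried nearly all counts here. Cox4i1 had 6314, 5517 and 6350 normalised counts in healthy livers and 4296, 4099 and 4609 in untreated HCC, and changed by -0.48 ± 0.11 (edgeR adjusted p = 0.00186), whereas Cox4i2, the lung form, had 1, 3 and 2 raw counts in healthy livers, 3, 8 and 10 in untreated HCC and 17, 6 and 14 in miR-22-treated HCC and was not tested. Cox7b changed by -0.73, Cox8a by -0.45 and Cox6b1 by -0.38 (edgeR adjusted p = 0.000324, 0.00697 and 0.00512), and with library totals Cox6b1 reversed to 0.04. Cox6a1 (-0.20), Cox7a2 (-0.17) and Cox7a2l (-0.16) did not pass the test (edgeR adjusted p = 0.0996, 0.231 and 0.166), and with library totals they were 0.22, 0.25 and 0.26. Of the heart and muscle forms, Cox6a2 had at most 9 counts, Cox8b had at most 3 counts, and Cox7a1 had a log2 fold change of -0.25 ± 0.53 (edgeR adjusted p = 0.713) that was 0.16 with library totals. Cox7a1 was highest in healthy replicate 1, at 25.6 normalised counts, which also had the most counts of the muscle creatine kinase Ckm, 192 against 0 to 37 in the other livers; the part of muscle RNA was not tested. Cox7b2 and Cox8c had 0 counts in all 9 libraries.

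Cox6b2, the testis form of subunit 6b, was the only member called higher in untreated HCC. Its raw counts were 3, 0 and 0 in healthy livers, 20, 25 and 6 in untreated HCC and 2, 2 and 15 in miR-22-treated HCC. Over the group, 51 counts against 3 gave a ratio of 12.1 after scaling, with a 95% exact binomial interval of 3.90 to 60.4 that covers counting error only. The edgeR adjusted p was 0.0164. The call was lost without healthy replicate 2, healthy replicate 3 or untreated HCC replicate 3. Ndufa4, a subunit of complex IV despite its name, fell by 0.49 (edgeR adjusted p = 0.00244), and its hypoxia-induced relative Ndufa4l2 changed by 0.34 ± 0.35 on 22.4 to 44.6 normalised counts in these 2 groups (edgeR adjusted p = 0.431).

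**Figure D4:**
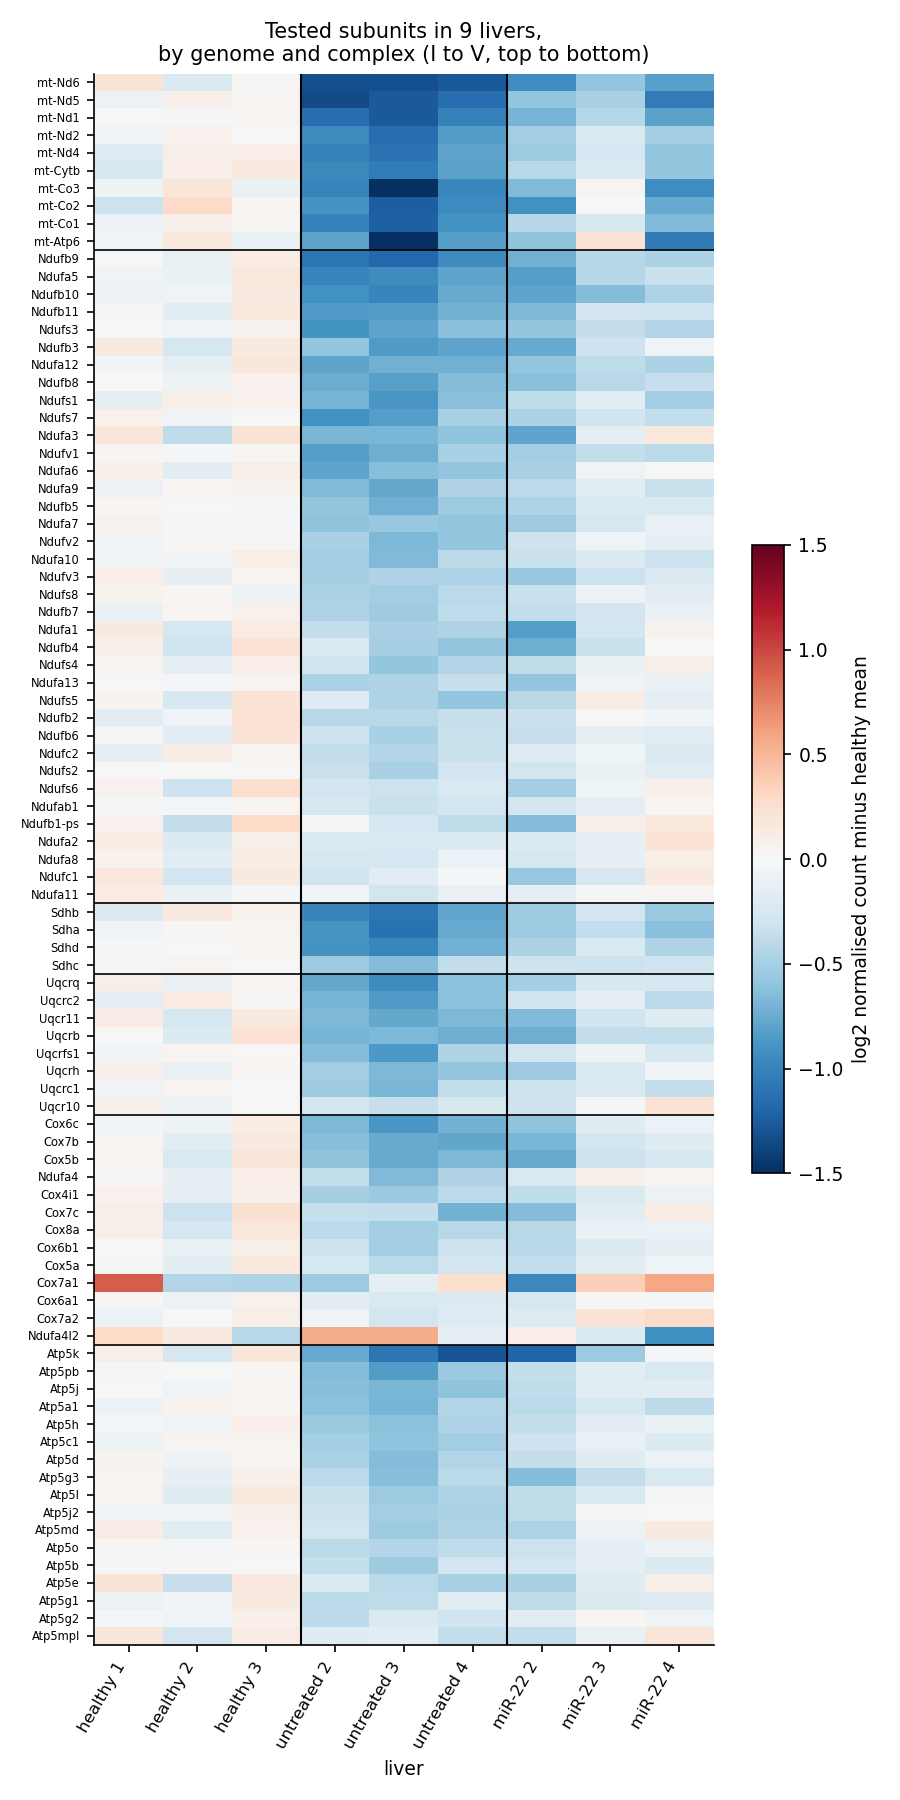
Tested subunits (rows, without Cox6b2) in 9 livers (columns), coloured by log2 of the normalised count plus 0.5 minus the mean of the 3 healthy livers, with mitochondrial-encoded mRNAs on top and nuclear subunits of complexes I to V below, separated by lines. Blue is lower: the 3 untreated HCC livers are lower than healthy livers in 10 of 10 mitochondrial rows and in most nuclear rows, with paler colours in the latter.

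miR-22-treated HCC was compared with untreated HCC to ask whether members differed with the treatment. By adjusted p and fold, 1 of 102 members was called higher, 0.98%, where 8.32% of all tested genes were, and 0 were called lower, where 5.47% of all tested genes were. By edgeR adjusted p alone, 35 members rose and 0 fell, against 13.6% and 10.4% of all tested genes. At an unadjusted p under 0.05, 59 were higher (57.8%, beside 19.1% of all tested genes) and 0 lower (beside 17%), and DESeq2 called 0 in either direction. The livers did not overlap for 49 members higher with miR-22 (19.7% of all tested genes) and 0 lower (19.6% of all tested genes). The median log2 fold change was 0.27, beside 0.00199 over all tested genes, and 98 of 102 members were above 0.

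The called member was mt-Co1, higher by 0.61 ± 0.17 with miR-22 (edgeR adjusted p = 0.0237). It was not called by DESeq2, with upper-quartile factors or with library totals. All 7 abundant mitochondrial-encoded mRNAs rose by adjusted p alone, by 0.51 to 0.61 on the log2 scale, with edgeR adjusted p from 0.0109 (mt-Nd2) to 0.0294 (mt-Cytb), and in each the groups did not overlap. mt-Co2, mt-Co3 and mt-Atp6 changed by 0.51, 0.70 and 0.64 and did not pass (edgeR adjusted p = 0.162, 0.0693 and 0.187).

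The remaining 28 members that rose were nuclear-encoded, 13 of 37 subunits of complex I, 3 of 4 of complex II, 3 of 8 of complex III, 2 of 14 of complex IV, 5 of 17 of complex V and 2 of 8 Ndufaf factors. By adjusted p alone, 13.6% of all tested genes rose. Ndufb9 rose by 0.53 ± 0.10, Sdha by 0.40 ± 0.12, Ndufs1 by 0.39 ± 0.11 and Ndufa4 by 0.46 ± 0.11 (edgeR adjusted p = 0.00374, 0.0267, 0.0266 and 0.0117). Uqcrc1 (0.22), Cox4i1 (0.26) and Atp5b (0.18) did not pass (edgeR adjusted p = 0.131, 0.0989 and 0.268), and with library totals Uqcrc1 and Atp5b were -0.01 and -0.05. The median of the nuclear members was 0.26. Relative to the median of all genes it was 0.26 with TMM and with library totals, a distance that scaling leaves nearly fixed. Summed per complex with TMM scaling, the miR-22-treated livers lay above the untreated ones without overlap for complexes I, II, III and V, with log2 differences of 0.28, 0.41, 0.36 and 0.24, and overlapped with them for complex IV (0.26); as a plain share of counts, complex II alone did not overlap, at 0.0846% to 0.0909% with miR-22 and 0.0724% to 0.0829% without. Hepatocyte markers moved with these members: 5 of 9 were called higher with miR-22, beside 8.32% of all tested genes.

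The count of 35 rested on particular livers. It was 5 without miR-22-treated HCC replicate 3, 9 without untreated HCC replicate 3 and 12 without untreated HCC replicate 2, up to 43 without another liver, and 4 when libraries were scaled by their totals. The count by adjusted p and fold ran from 0 to 9 over the same omissions. The 9 came without untreated HCC replicate 4, where 1483 of 16147 tested genes were called higher.

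Against healthy livers, miR-22-treated HCC had 5 members called lower (7.05% of all tested genes) and 0 called higher (16.9% of all tested genes). By edgeR adjusted p alone 36 were lower (35.3%, beside 15.1% of all tested genes) and 0 higher (beside 21.4%). At an unadjusted p under 0.05, 51 were lower (50%, beside 20% of all tested genes) and 0 higher (beside 25.7%), and DESeq2, without that filter, called 1 higher, the lung form Cox4i2. The 5, named after their values were seen, were mt-Nd6, mt-Nd5, mt-Nd1, Ndufb10 and the assembly factor Ndufaf4, with log2 fold changes of -0.78, -0.69, -0.63, -0.63 and -0.63. The median over members was -0.26, where untreated HCC had -0.52 against the same livers. The comparisons share groups and are set side by side only.

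miR-22-3p, which guides silencing complexes to complementary sites in 3′ UTRs through its seed, is shown with the seed (bases 2 to 8) in capitals, from RefSeq on GRCm38.p6.
mmu-miR-22-3p: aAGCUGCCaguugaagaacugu
Of 90 tested nuclear members with an annotated 3′ UTR, 7 held the complementary heptamer GGCAGCT (7.78%), where 16.7% of 13670 tested genes did; the median 3′ UTR was 239 bases in the members and 1325 in all tested genes. The 7 were Ndufaf7, Ndufa10, Ndufab1, Ndufb3, Ndufs5, Uqcr11 and Atp5j, whose log2 fold changes with miR-22 ran from 0.08 to 0.41, and none was below 0. The heptamer of Atp5j, which had the largest rise of the 7 and was the only member among them to pass (edgeR adjusted p = 0.00563), is shown with that of Ndufb3 (0.39, edgeR adjusted p = 0.108). The heptamer is in capitals, and both genes were chosen after their values were seen.
Atp5j: agcacttagacGGCAGCTtacaaccatct
Ndufb3: tgcatatagcaGGCAGCTacaaaatttaa
A match of letters is not a measured site, and pairing of the seed was not tested.

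Nuclear subunit genes are known to share binding motifs of NRF1, of the ETS factor GABPA and of estrogen-related receptors, which act with the PGC-1 coactivators. Of 80 tested nuclear subunit genes, 67 had a RefSeq promoter on GRCm38.p6 (250 bases before to 50 after a start). On either strand, the NRF1 motif GCGCATGCG was in 8 of 67 (11.9%) and in 1.95% of 27025 genes with a promoter, and 7 letters of the GABPA motif, CCGGAAG, were in 17 of 67 (25.4%) and in 9.93% of genes. The receptor motif TCAAGGTCA was in 2 of 67 (2.99%) and 0.466% of genes. These shares of genes are over all with a promoter, whether tested here or not, whereas the 67 members were all tested. The NRF1 letters nearly equal their reverse complement, so that most windows match on both strands.

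The windows below are those of members with large and small changes that hold the same motif, in capitals, read along the strand of the gene; Cox6a1 and Sdhd hold the reverse complement.
Atp5k, NRF1, chr5:108434431-108434459: tttcactgcgGCGCATGCGcctttctggc
Ndufa11, NRF1, chr17:56717692-56717720: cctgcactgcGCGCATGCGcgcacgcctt
Sdhb, GABPA, chr4:140961267-140961293: ctcggagaaaCCGGAAGcggccttcca
Cox6a1, GABPA, chr5:115348958-115348984: cccatttccgCTTCCGGcgcgccggtg
Sdhd, estrogen-related receptor, chr9:50603800-50603823: ggttgtagagTGACCTTGAgccct
Atp5k changed by -1.04 and Ndufa11 by -0.15 in untreated HCC with the same NRF1 letters, and Sdhb by -0.95 and Cox6a1 by -0.20 with the GABPA letters on opposite strands. These windows lie on the plus strand for Ndufa11 and Sdhb and on the minus strand for the others, and were chosen after the values were seen.

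Transcriptional regulators of mitochondrial biogenesis changed in both directions. Of 13 tested, 5 were called lower (38.5%, beside 18.1% of all tested genes) and 1 higher (7.69%, beside 22.7%) in untreated HCC. With miR-22, 4 were called higher (30.8%, beside 8.32% of all tested genes) and 0 lower by edgeR (beside 5.47%; 2 at an unadjusted p under 0.05 and 1 by DESeq2). Ppara, the receptor that drives fatty acid oxidation, had 3938, 4278 and 3386 normalised counts in healthy livers, 906, 906 and 1262 in untreated HCC and 2624, 3331 and 2389 in miR-22-treated HCC. It fell by 1.92 ± 0.16 in untreated HCC (edgeR adjusted p = 8.29e-07) and rose by 1.44 ± 0.16 with miR-22 (edgeR adjusted p = 0.000164), and the 3 groups did not overlap.

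Ppargc1a, the PGC-1α coactivator, had 395, 384 and 355 normalised counts in healthy livers, 169, 221 and 223 in untreated HCC and 436, 679 and 302 in miR-22-treated HCC. It fell by 0.88 and rose by 1.20 (edgeR adjusted p = 0.00594 and 0.00328), as did Ppargc1b (PGC-1β), with log2 fold changes of -1.82 and 1.60 (edgeR adjusted p = 0.000721 and 0.00661), and the receptor Esrrg, with log2 fold changes of -3.59 and 1.70 (edgeR adjusted p = 3.72e-06 and 0.00698). Pprc1, the growth-responsive coactivator of the same family, rose by 1.41 ± 0.14 in untreated HCC (edgeR adjusted p = 3.19e-06) and changed by -0.57 ± 0.13 with miR-22 (edgeR adjusted p = 0.00939), just under the fold threshold.

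Of 34 genes that copy, transcribe and stabilise mitochondrial DNA and RNA, 10 were called lower in untreated HCC, 29.4%, beside 18.1% of all tested genes, and edgeR and DESeq2 called 0 higher, beside 22.7% of all tested genes by edgeR. By adjusted p alone 19 fell (55.9%, beside 26.8% of all tested genes), and at an unadjusted p under 0.05 there were 20 lower (58.8%, beside 29.1%) and 0 higher (beside 31.7%). Tfam, which packages mitochondrial DNA and starts its transcription, had 1211, 1299 and 1207 normalised counts in healthy livers, 713, 671 and 772 in untreated HCC and 968, 1043 and 942 in miR-22-treated HCC, with no overlap. It fell by 0.79 ± 0.09 (edgeR adjusted p = 7e-06) and rose by 0.45 ± 0.09 with miR-22 (edgeR adjusted p = 0.00289). Lrpprc, which stabilises mitochondrial mRNAs, Fastkd1, an RNA-binding protein of mitochondria, and Polg2, the accessory subunit of the mitochondrial DNA polymerase, fell, with log2 fold changes of -0.88, -1.16 and -1.39 (edgeR adjusted p = 1.87e-05, 1.02e-05 and 7.88e-05). With miR-22 Polg2 was the only called gene of this list (2.94%, beside 8.32% of all tested genes called higher), higher by 0.77 ± 0.20 (edgeR adjusted p = 0.0164). By adjusted p alone 5 rose (14.7%, beside 13.6%), and edgeR and DESeq2 called 0 lower (beside 5.47%), with 0 lower at an unadjusted p under 0.05.

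Assembly factors, a list that includes the 8 Ndufaf members, had 15 of 47 called lower (31.9%, beside 18.1% of all tested genes) and 1 higher (Cox19, named after its values were seen; 2.13%, beside 22.7%) in untreated HCC and 0 called with miR-22 by edgeR or DESeq2 (8.32% of all tested genes were called higher and 5.47% lower). By adjusted p alone 6 rose (12.8%, beside 13.6% of all tested genes), and at an unadjusted p under 0.05 there were 11 higher (23.4%, beside 19.1%) and 1 lower (2.13%, beside 17%). Ndufaf1 fell by 0.95, Foxred1 by 0.82 and Uqcc1 by 0.75 (edgeR adjusted p = 2.17e-05, 2.11e-05 and 1.78e-05); the first pair assemble complex I and the last complex III. Of 20 electron carriers and other inputs, 9 were called lower (45%, beside the same 18.1%) and 0 higher by edgeR and DESeq2 (2 at an unadjusted p under 0.05), and 2 were called higher with miR-22 (10%, beside 8.32%), with 8 higher by adjusted p alone (40%, beside 13.6%). Those that fell included Etfa and Etfb, which pass electrons from fatty acid oxidation, Sqor, which oxidizes sulfide, Coq5, an enzyme of ubiquinone synthesis, and Coq10b, a ubiquinone-binding protein, with log2 fold changes of -0.92, -1.14, -1.10, -0.67 and -1.36 (edgeR adjusted p = 1.82e-05, 1.2e-06, 4.58e-05, 3.57e-05 and 4.67e-05). With miR-22 Coq10b rose by 1.20 and Sqor by 0.65 (edgeR adjusted p = 0.000963 and 0.00791).

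Citric acid cycle genes had 5 of 18 called lower in untreated HCC, 27.8%, beside 18.1% of all tested genes, among them Idh3b (-0.89), Sucla2 (-0.88) and Suclg1 (-0.68). None was called higher by edgeR or DESeq2, but by edgeR adjusted p alone 12 fell (66.7%, beside 26.8% of all tested genes) and 2 rose (11.1%, beside 29.4%), Cs (0.48) and Idh2 (0.45), which were named after their values were seen. At an unadjusted p under 0.05 there were 13 lower (72.2%, beside 29.1%) and 3 higher (16.7%, beside 31.7%). Of 78 mitochondrial ribosomal protein genes, 8 were called lower, 10.3%, and 2 higher, 2.56%, both below the shares of all tested genes (18.1% and 22.7%), with a median of -0.21. By adjusted p alone 34 were lower, 43.6%, above the 26.8% of all tested genes, and 2 higher. Mrpl15 fell by 0.99 and Mrps5 by 0.70, while Mrps6 rose by 1.34 (edgeR adjusted p = 2.2e-06, 1.66e-05 and 7.14e-06). Outer membrane and import genes, often read as a gauge of mitochondrial mass, had 3 of 24 called lower, 12.5%, and 1 higher, 4.17%, again below the shares of all tested genes, and a median of -0.15. By adjusted p alone 9 were lower, 37.5%, above the 26.8% of all tested genes, and 1 higher. Tomm70a and Hspd1 fell by 0.62 and 0.59 and Timm17a rose by 0.64 (edgeR adjusted p = 5.81e-05, 0.000539 and 0.000165). With miR-22, edgeR and DESeq2 called 0 genes of these 3 lists, and at an unadjusted p under 0.05 8 of the citric acid cycle (44.4%), 17 of the ribosome (21.8%) and 5 of outer membrane and import (20.8%) were higher, beside 19.1% of all tested genes. At the same threshold 2 (11.1%), 1 (1.28%) and 3 (12.5%) were lower, beside 17% of all tested genes.

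The ADP/ATP and phosphate carriers and uncoupling proteins were split. Of 4 tested, 2 were called higher in untreated HCC (beside 22.7% of all tested genes) and the other two were lower by adjusted p alone (beside 26.8%). Slc25a4, the ADP/ATP carrier of heart and muscle, had 207, 70.9 and 112 normalised counts in healthy livers, 954, 1355 and 966 in untreated HCC and 629, 547 and 908 in miR-22-treated HCC, and rose by 3.07 ± 0.31 (edgeR adjusted p = 3.4e-06). The highest healthy value, 207, was in the liver with the most Ckm. Ucp2, an uncoupling protein relative that is abundant in immune cells, had 567, 477 and 534 in healthy livers, 2571, 2710 and 2034 in untreated HCC and 1491, 1675 and 1863 in miR-22-treated HCC. In the same comparison 3 of 3 tested neutrophil markers, 1 of 7 Kupffer cell and macrophage markers and 1 of 6 T and NK cell markers were called higher, beside 22.7% of all tested genes. Of 4 B cell markers 1 was called lower (beside 18.1% of all tested genes). By adjusted p alone 2 of 7 Kupffer cell and macrophage markers were lower (beside 26.8%). The part of these cells was not tested. Ucp2 rose by 2.21 ± 0.13 (edgeR adjusted p = 5.2e-08) and changed by -0.54 ± 0.12 with miR-22 (edgeR adjusted p = 0.00698), under the fold threshold.

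**Figure D5:**
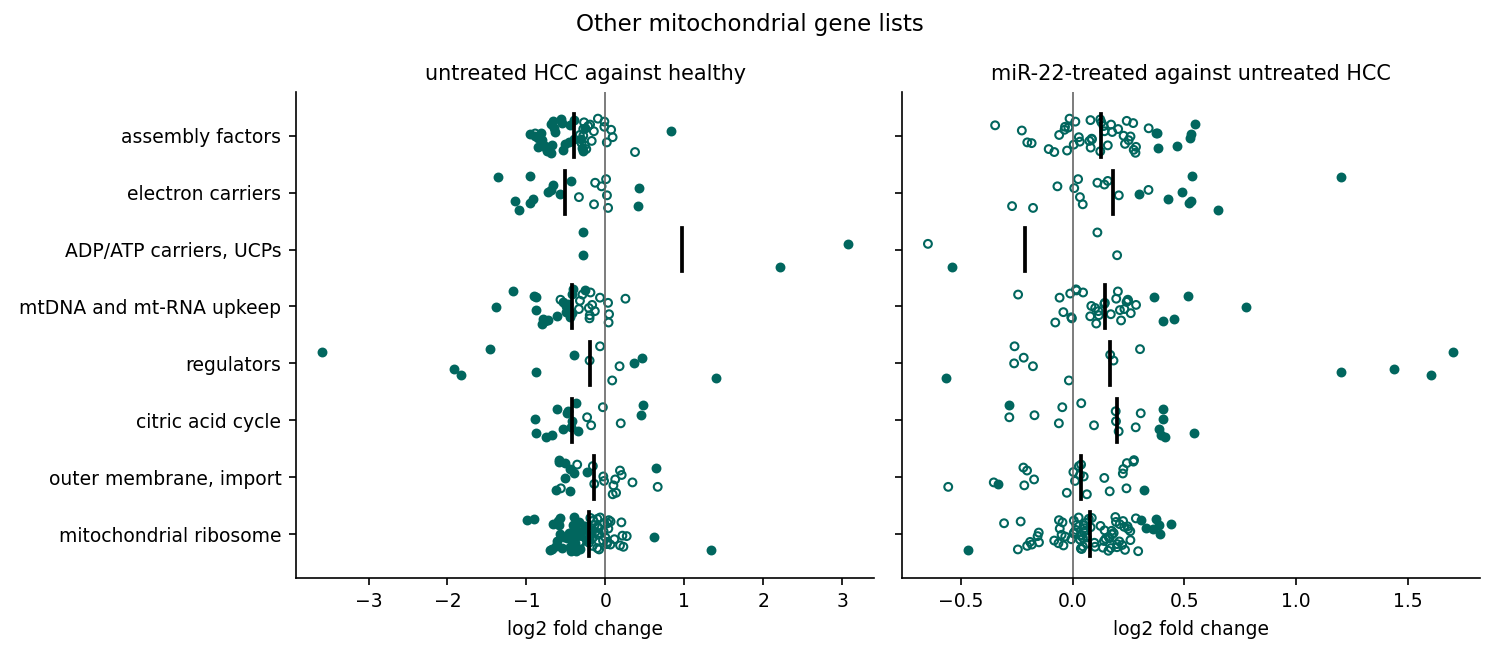
Log2 fold change (x axis) of each tested gene of 8 mitochondrial gene lists (rows), for untreated HCC against healthy livers (left) and miR-22-treated against untreated HCC (right). Filled points have an edgeR adjusted p under 0.05 and black bars are list medians. On the left the medians lie between -0.51 (electron carriers) and -0.15 (outer membrane and import) for all lists but the 4 carriers and uncoupling proteins, at 0.97.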

How the data were processed

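Whole-liver RNA of 9 mice was sequenced from libraries that do not keep strand. The authors deposited counts per gene, which they estimated with Salmon on GRCm39 (mm39) after FastQC 0.11.7 and summed to genes with tximport, per the labels and methods (their own tests used DESeq2 1.18); the deposited values were whole numbers and were used unchanged. A table of normalised values was not used. Each library is a separate sample of its group, and p-values measure the spread between these samples.

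Genes were filtered with filterByExpr, scaled with TMM and tested with the quasi-likelihood test of edgeR 4.0.16 in R 4.3.3, all 3 groups in 1 fit, with Benjamini-Hochberg adjustment over 15717 genes. A gene was called at a fold change above 1.5 with an adjusted p below 0.05. Normalised counts are at the mean effective library size of 19401057. Totals of 16664659 to 23908392 limit the precision of low counts, and the counting interval covers counting error only. The edgeR test was checked on simulated counts.

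Members and lists were chosen with earlier results of these data known. Named genes were the mitochondrial-encoded mRNAs, a core subunit of each complex, isoform families and the inhibitor, Cyc1, Ppargc1a and Tfam, up to 8 called members with the largest rise and 8 with the largest fall (livers not overlapping, at least 10 counts in each library of the higher group), and up to 3 called genes of each list with the smallest p; others are said to be named after their values were seen. Alternatives were DESeq2 1.42.0, other scalings and filters, glmTreat, fits of 2 groups or with a replicate block, and leaving out each library. GENCODE M39 gave transcript lengths and UTRs, blastn 2.17.0 the nuclear copy, and RefSeq on GRCm38.p6 the promoters and miRNA. The sources give differing virus doses, which are not reported here.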

Additional observations from a re-analysis of the deposited data

How the results depend on the processing

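Counts of calls moved with the fold threshold, the scaling and, for miR-22, single livers. With library totals alone, members called lower in untreated HCC went from 44 to 8 and those at adjusted p alone from 79 to 32 (3 higher), members higher with miR-22 from 1 to 0 (35 to 4 at adjusted p alone), and members lower in miR-22-treated HCC against healthy livers from 5 to 1. Of 15717 tested genes, those called lower in untreated HCC went from 2842 to 1492 and those called higher from 3575 to 5986. Genes called higher with miR-22 went from 1308 to 835, and genes lower in miR-22-treated HCC against healthy livers from 1108 to 593. The summed nuclear log2 differences became -0.13 and 0.043 and the mitochondrial ones -0.63 and 0.33 for untreated HCC against healthy livers and miR-22-treated against untreated HCC. Testing against the fold with glmTreat left 21 lower in untreated HCC, 0 higher with miR-22 and 0 lower against healthy livers. Of 15717 tested genes, glmTreat called 1854, 413 and 294 in these directions. With no fold threshold the counts of members were 79, 35 and 36, beside 26.8%, 13.6% and 15.1% of all tested genes. The single member higher in untreated HCC was lost (0) with at least 10 counts per library or only 2 groups in the fit. The single member higher with miR-22 was lost (0) with DESeq2, DESeq2 size factors, upper-quartile factors and 2 groups (22 at adjusted p alone), and was 2 without a filter. DESeq2 and no filter each gave 1 member higher against healthy livers. The cause of these shifts was not tested.

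Leaving out each library gave 39 to 48 members lower and 0 to 1 higher in untreated HCC (70 to 81 and 0 to 1 at adjusted p alone), 0 to 9 higher and 0 to 0 lower with miR-22 (5 to 43 and 0 to 0 at adjusted p alone), and 3 to 9 lower and 0 to 1 higher against healthy livers. Over all tested genes, by adjusted p and fold, 2653 to 2965 were lower and 3409 to 3622 higher in untreated HCC. With miR-22, 1015 to 1511 were higher and 415 to 1149 lower. Against healthy livers, 881 to 1244 were lower and 2361 to 2674 higher. The ratio ranged from -0.54 to -0.44 and from 0.22 to 0.41, the mitochondrial sum from -1.12 to -0.98 and from 0.46 to 0.66, and the nuclear sum from -0.60 to -0.50 and from 0.23 to 0.35.

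Replicate numbers did not pair the samples: deviations of same-numbered untreated and miR-22-treated livers correlated at -0.121, -0.131 and -0.235. With the replicate block, 47 members were called lower in untreated HCC, 0 higher with miR-22 (14 at adjusted p alone) and 5 lower against healthy livers. Of 15717 tested genes, 2595, 1127 and 873 were called in these directions.

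With library totals alone these named genes reversed in untreated HCC: Atp5g1 (0.10), Cox7a2l (0.26), Atp5b (0.034), Cox7a2 (0.25), Cox6b1 (0.039), Cox6a1 (0.22), Atp5g2 (0.13) and Cox7a1 (0.16; also 0.078 with the block and -0.51 to 0.35 over left-out livers, the latter without healthy replicate 1). With miR-22 the reversed genes were Uqcc1 (-0.11), Atp5g1 (-0.17), Atp5g3 (-0.16; also -0.026 to 0.18 over left-out livers, below 0 without untreated HCC replicate 3, at -0.0024, and without miR-22-treated replicate 4), Atp5b (-0.053), Uqcrc1 (-0.012), Fastkd1 (-0.034), Cox6b1 (-0.10), Cox6a1 (-0.12), Coq5 (-0.090) and Atp5g2 (-0.0044), and, without miR-22-treated replicate 4, Cox7a1 (-0.077, in a range up to 0.59). Of the other values of named genes, 1624 kept direction and side of the threshold, 40 passed it and 56 lost it.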
